A study of Mus musculus with 16 samples.

Results

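The laminin chain genes described here encode 5 alpha chains (Lama1 to Lama5), 3 beta chains (Lamb1, Lamb2 and Lamb3) and 1 gamma chain (Lamc1). They were chosen by symbol from the expression tables of 3 mouse cell types. All 9 were listed in the tables of embryonic stem cells (ESCs) and embryonic fibroblasts (MEFs), of 23083 and 21615 genes. The table of the cells labelled kidney fibroblasts (MKFs), with 18288 genes, listed 8 of them and not Lama2. Lamc3, another gamma chain gene, is given beside them where a trimer needs it.

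RNA sequencing was done on 16 libraries in 8 groups of 2. There were 3 ESC groups: wild type, a knockout (KO) of Actb, the gene of beta-actin, and a deletion of the full Actb locus. The MEFs were wild type, Actg1 KO or deleted for the full Actg1 locus, the gene of gamma-actin. The MKFs carried a floxed Kindlin-2 gene (Fermt2, an activator of integrins) or were Kindlin-2 KO, and the series asked whether a KO and a deletion of the whole locus change the expression of other genes differently. No agent, time point or age is given for any group. How the alleles were made, which Cre was used, and whether a line is a single clone are not given in the sources used here, and nothing says that the 2 libraries of a group came from separate cultures. P-values below therefore measure the spread between libraries, which may be technical.

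Laminins are large cross-shaped proteins of basement membranes, the thin sheets of matrix on which epithelia, endothelia, muscle and nerve rest. Each is a trimer of an alpha, a beta and a gamma chain, named by the numbers of its chains, so that laminin-521 holds alpha 5, beta 2 and gamma 1. The chains join inside the cell through a coiled coil, and the alpha chain's end carries the sites for integrins and dystroglycan on the cell surface. Laminin-111 is the laminin of the early embryo, laminins with alpha 5 are the most widespread in adult tissue and keep stem cells growing in culture, laminin-211 belongs to muscle and nerve, laminin-411 to blood vessels, and laminins with alpha 3 anchor epidermis and other epithelia.

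In the mouse genome (GRCm38, GENCODE M21) Lama1 lies at chr17:67697259-67822647, Lama2 at chr10:26980036-27619758, Lama4 at chr10:38965515-39110188 and Lama5 at chr2:180176373-180225859. The beta chain genes lie at chr12:31265234-31329644 (Lamb1), chr9:108479736-108490530 (Lamb2) and chr1:193207699-193343878 (Lamb3). Lamc1 lies at chr1:153218922-153332786. Only 2 of the 9 genes, Lama2 and Lama3, overlap an annotated antisense gene in exons, over 631 and 197 bases.

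Lama3 was not searched in the RefSeq table of start-site windows (assembly GRCm38.p6). Of the 9 genes, 5 had an entry used here, and 4 of these are shown because their RNAs went different ways in the same cells. Lama5 and Lamb1 rose together in Kindlin-2 KO cells, Lamb2 fell there, and Lamb3 rose from a low level. Each run reads 5′ to 3′ on the gene's strand, with GC boxes (GGGCGG on either strand) in capitals. It holds the longest stretch of the 250-base window upstream of the start that lies outside annotated exons. For Lamb2 this is 124 bases, and the part of the window nearest the start is not shown. The Lama5 run is chr2:180225860-180226109 on the minus strand, and the Lamb1 run is chr12:31265043-31265233 on the plus strand. The Lamb2 run is chr9:108479612-108479735 and the run before the first of 2 listed Lamb3 starts is chr1:193301744-193301992, both on the plus strand. This Lamb3 start lies inside the span of the gene given above.
Lama5: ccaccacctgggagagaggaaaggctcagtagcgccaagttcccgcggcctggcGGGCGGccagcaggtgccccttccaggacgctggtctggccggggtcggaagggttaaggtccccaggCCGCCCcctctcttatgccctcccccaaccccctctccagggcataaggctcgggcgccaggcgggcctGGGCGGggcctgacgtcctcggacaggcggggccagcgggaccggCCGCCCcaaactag
Lamb1: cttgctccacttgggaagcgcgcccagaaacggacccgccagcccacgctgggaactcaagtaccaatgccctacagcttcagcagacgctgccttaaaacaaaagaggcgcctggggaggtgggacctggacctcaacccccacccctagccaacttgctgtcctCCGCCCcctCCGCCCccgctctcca
Lamb2: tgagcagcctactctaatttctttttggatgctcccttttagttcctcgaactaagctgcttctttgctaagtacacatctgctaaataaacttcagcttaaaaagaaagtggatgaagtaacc
Lamb3: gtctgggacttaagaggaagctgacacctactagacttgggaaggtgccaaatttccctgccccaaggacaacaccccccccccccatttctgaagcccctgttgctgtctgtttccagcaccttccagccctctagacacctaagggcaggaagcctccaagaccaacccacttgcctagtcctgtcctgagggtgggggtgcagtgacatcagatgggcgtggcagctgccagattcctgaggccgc
The Lama5 run held 4 GC boxes and the Lamb1 run 2, and the Lamb2 and Lamb3 runs held 0. A GC box was present in 32.7% of 32851 windows of 250 bases. Guanine and cytosine made up 72.4% of the 250-base window of Lama5, 62.0% of that of Lamb1, 58.8% of that of Lamb3 and 43.6% of that of Lamb2, against a median of 52.4% over all windows. No AP-1 site (TGANTCA), no TATAAA and no CArG box was found in these 4 runs. Over all windows these were present in 6.75%, 12.4% and 1.47%, so their absence from 4 runs says little. Lama2, which had an entry but is not shown, held 1 CArG box in its window. A match of letters is a description only.

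Each value is a whole-number normalised read count, and each cell type's table is on its own scale, so levels are compared within a cell type only. The libraries summed to between 15565648 and 22094490 normalised counts, and the log2 values of the 2 libraries of a group correlated at 0.981 to 0.996 across genes. Actb read 36364 and 34140 in wild-type ESCs, 23650 and 22707 in the KO and 2372 and 2336 after locus deletion. Actg1 read 5737 and 5672 in wild-type MEFs, 1004 and 1026 in the KO and 25 and 15 after locus deletion, and Fermt2 read 3078 and 3142 in floxed MKFs and 1251 and 1240 in the KO. All 8 ESC markers were present in the ESCs. All 11 fibroblast markers were listed in the MEFs, but at 10 or more in both libraries there were 9 in wild type, 11 in the KO and 8 after locus deletion. In the MKFs only 6 of 11 fibroblast markers were listed, and Col3a1, Dcn, Lum and Thy1 were not. All 5 kidney tubule markers and 11 of 12 epithelial markers were listed, but a gene can be listed through a single group. In floxed MKFs 5 fibroblast, 5 tubule and 4 epithelial markers were at 10 or more in both libraries. In the KO these counts were 0, 4 and 9. In bulk RNA, fewer cells of a type and less RNA per cell cannot be told apart.

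**Figure D1:**
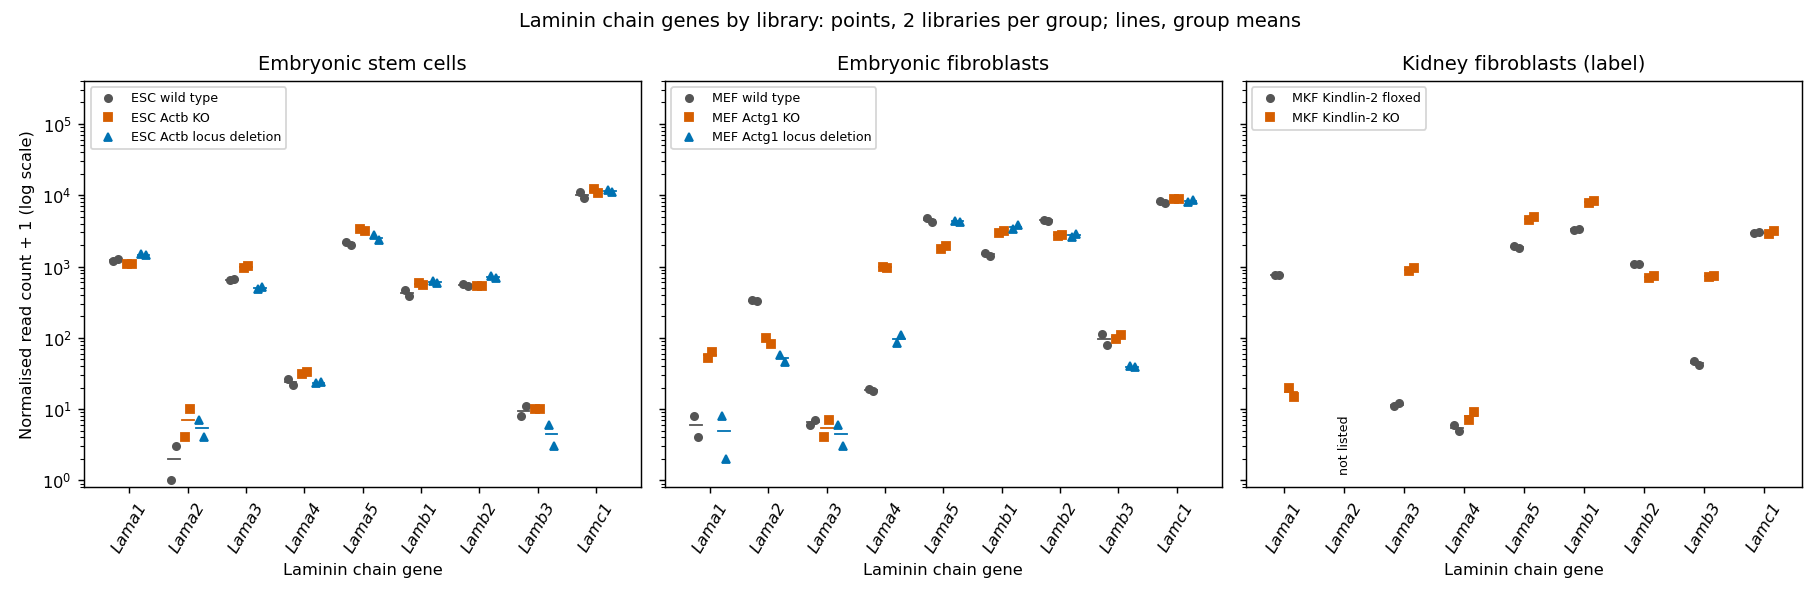
Normalised read count plus 1 (log axis) of each laminin chain gene, with 1 panel per cell type and 1 colour per group. Each point is a library and each short line the mean of 2 libraries; Lamc1 stays within a narrow band in every panel, while Lama4 in MEFs and Lama3 and Lamb3 in MKFs climb by more than 10-fold in the KO.

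Lamc1, the gamma chain shared by most trimers, was among the 3 highest chains per kilobase of exon in every library and varied little. It read 11155 and 9077 in wild-type ESCs, 12338 and 10623 in the Actb KO and 11702 and 11128 after locus deletion. In MEFs it read 8303 and 7680 in wild type, 8991 and 8777 in the Actg1 KO and 8123 and 8582 after locus deletion. In MKFs it read 2952 and 3001 in floxed cells and 2858 and 3129 in the KO. The highest library was 1.36 times the lowest in ESCs, 1.17 times in MEFs and 1.09 times in MKFs. Groups overlapped in ESCs and MKFs. Lamc1 was not called in any comparison, with log2 differences from each control of 0.01 to 0.19. In the Actg1 KO its difference of 0.15 ± 0.0618 (SE, adjusted p = 0.0856) was past the threshold when libraries were scaled to the same sum (0.24, adjusted p = 0.0111), a scaling that moved the median of all genes from 0.06 to 0.14. Over the 16 libraries, each centred on its table's mean, the 5 genes whose log2 values lay closest to those of Lamc1 were Ppfia1, Ncaph2, Ncbp3, Supv3l1 and Dcaf7. Their root-mean-square differences from Lamc1 ran from 0.0650 to 0.0739 on the log2 scale, a measure that is small for any gene that varies little. Among 9009 genes Lamb2 ranked 6051, Lamb1 8080 and Lama5 8425 by this measure.

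Because the chains differ in length, their levels were compared after division by the kilobases of merged exons, from 6082 bases in Lamb2 to 16338 in Lama2. On this per-kilobase scale Lamc1 stood far above every other chain in wild-type ESCs, at 1349 and 1097. The alpha chains followed in the order Lama5 (192 and 178), Lama1 (124 and 131), Lama3 (60.3 and 61.8), with Lama4 at 2.07 and 1.74 and Lama2 near 0. These do not overlap between neighbours above Lama4. Among beta chains Lamb2 (93.9 and 88.6) stood above Lamb1 (46.6 and 38.3), and Lamb3 lay between 7 and 10 normalised counts. The summed beta chains were below the summed alpha chains in all 6 ESC libraries, and Lamc1 alone stood at 7.73 to 9.98 times the beta sum. With all 3 chains at 10 or more normalised counts in both libraries taken as present, 8 of the 13 trimers considered were allowed in each ESC group. They were the laminins with alpha 1, alpha 3, alpha 4 or alpha 5 paired with beta 1 or beta 2 and gamma 1.

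In Actb KO ESCs the alpha chain genes Lama5 and Lama3 rose by about 1.5-fold, and the other 7 chain genes did not pass the test. These 2 of 9, both higher, compare with 4.88% of all genes called, 2.44% higher and 2.44% lower. Lama5, of the widespread laminin-511 and laminin-521, read 2182 and 2028 in wild type and 3326 and 3124 in the KO. Both KO libraries were above both wild-type libraries, by a log2 fold change of 0.62 ± 0.113 (SE, limma, adjusted p = 0.0223). Lama3, the alpha chain of epithelial laminins, read 648 and 664 in wild type and 944 and 1009 in the KO, again with no overlap (0.57 ± 0.11, adjusted p = 0.0261). Lamb1 read 462 and 380 in wild type and 591 and 548 in the KO, and its difference of 0.44 ± 0.132 had an adjusted p of 0.104, or 0.0442 with the replicate number as a block. Lama1, the alpha chain of laminin-111, read 1200 and 1265 against 1070 and 1073 (−0.20, adjusted p = 0.297), and Lamb2, the other common beta chain, read 571 and 539 against 538 and 540 (−0.04, adjusted p = 0.885). The median log2 difference of the 9 was 0.42, against 0.00 over all genes. No chain gene was called when any library of the comparison was left out, with adjusted p of 0.166 to 0.292 for Lama5 and 0.154 to 0.241 for Lama3.

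After deletion of the Actb locus Lamb1 was the only chain gene called, and Lama3 and Lamb3 had the lowest differences from wild type. Here 11.2% of all genes were called, 5.19% higher, against 1 of the 9. Lamb1, a beta chain of the embryonic laminins, read 621 and 591 against 462 and 380 in wild type (0.53 ± 0.132, limma, adjusted p = 0.0372). Lama3 read 485 and 523 against 648 and 664, a difference of −0.38 ± 0.11 that missed the threshold (adjusted p = 0.0611) and passed it with the replicate block (adjusted p = 0.0332). Lama1 read 1481 and 1445 (0.25, adjusted p = 0.149), Lama5 2740 and 2320 (0.26, adjusted p = 0.185) and Lamb2 727 and 689 (0.35, adjusted p = 0.0779, or 0.0495 with the block). Lamb3 read 5 and 2 against 7 and 10 (−1.14, adjusted p = 0.218). Lamb1 alone passed the test. Without any 1 library of the comparison Lamb1 was not called either (adjusted p = 0.0790 to 0.196). The median difference was 0.25, against 0.01 over all genes.

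The KO and the locus deletion were also compared directly, a contrast that shares its libraries with both comparisons above. Lama3 was higher in the KO than after locus deletion, at 944 and 1009 against 485 and 523 (0.95 ± 0.11, limma, adjusted p = 0.00359). Lama1 was lower, at 1070 and 1073 against 1481 and 1445 (−0.45 ± 0.0977, adjusted p = 0.0383). These were 2 of 9 genes, against 4.88% of all genes, 2.56% higher and 2.32% lower. The groups did not overlap for either. The share of all genes whose groups lay apart was not counted, so this sets neither gene apart. Both calls were lost when any library of the 2 groups was left out, with adjusted p of 0.0751 to 0.159 for Lama3 and 0.170 to 0.290 for Lama1. Lama5 differed by 0.35 (adjusted p = 0.129, or 0.0487 with the replicate block), and Lamc1 by 0.00 (adjusted p = 0.997).

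As a share of the summed per-kilobase alpha level, Lama5 made up 50.7% and 47.8% in wild-type ESCs, 59.2% and 56.9% in the Actb KO and 54.6% and 50.5% after locus deletion. Lama1 made up 32.8% and 35.1% in wild type, 22.4% and 23.0% in the KO and 34.7% and 37.0% after locus deletion. Lama3 made up at most 16.6% in wild type, 17.8% and 19.5% in the KO and 10.2% and 12.1% after locus deletion. With the length of its shorter coding transcript, a choice made after seeing the data, Lama3 made up 26.9% and 27.8% in wild type, 29.6% and 31.9% in the KO and 18.1% and 21.0% after locus deletion, and stood above Lama1 (19.2% and 19.4%) in the KO. The KO libraries had the lowest Lama1 shares and the locus-deletion libraries the lowest Lama3 shares. The level of the scarcest of the 3 chains, taken here as the limit that RNA levels set on a trimer, was set by a beta chain for laminin-521 (93.9 and 88.6 per kilobase in wild type, Lamb2) and laminin-511 (46.6 and 38.3, Lamb1). Each trimer was taken on its own here and below, although trimers share chains, so these limits do not hold for all trimers at once. Protein was not measured. With the coding length of the longest transcript in place of merged exons, Lamb1 stood closer to Lamb2, and laminin-511 was then bounded at 79.9 and 65.7 and laminin-521 at 101 and 95.8 in wild type.

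Counts for lists of related genes in the ESCs compare with 4.88% of all genes called in the Actb KO and 11.2% after locus deletion. Of 19 tested partners of laminin, such as nidogens, collagen IV and perlecan, 1 rose and 1 fell in the KO. Egfl6, a secreted matrix protein, went from 210 and 202 to 465 and 511 (1.24, adjusted p = 0.00396), and Nid1, the nidogen that links laminin to collagen IV, fell by 0.40 (adjusted p = 0.0499). After locus deletion 2 rose and 6 fell. Col4a1, a chain of collagen IV, fell by 1.34 (adjusted p = 0.00444), Col4a2 fell by 0.88 and Nid1 rose by 0.47 (adjusted p = 0.016). Of 13 laminin receptor genes only Itga1, an integrin chain that binds collagen IV and laminin, rose in the KO, from 4 and 5 to 45 and 49 (3.13). After locus deletion it read 105 and 122 (4.38), and Itga6, the alpha chain of the main laminin integrins, rose by 0.39 (adjusted p = 0.0424) while its partner Itgb1 fell by 0.36 (adjusted p = 0.0409). Bcam, which binds alpha 5 laminins, fell by 1.19 after locus deletion. Of 4 proteases that cut laminins, 0 were called in the KO, and 3 fell after locus deletion, among them Mmp2 (−2.04) and Mmp14, which read 87 and 98 against 162 and 214. Markers of fibroblasts, 5 of 11 listed, summed to 111 to 148 per ESC library, and markers of primitive and parietal endoderm, cells rich in Lama1 and Lamb1, summed to 147 and 140 in wild type, 223 and 200 in the KO and 166 and 160 after locus deletion, and 2 of the 11 listed rose and 1 fell in the KO. Epithelial markers, 11 of 12 listed, summed to 13437 and 12880 in wild type, 10061 and 9999 in the KO and 8103 and 7928 after locus deletion. The part of these markers in the ESC results was not tested.

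**Figure D2:**
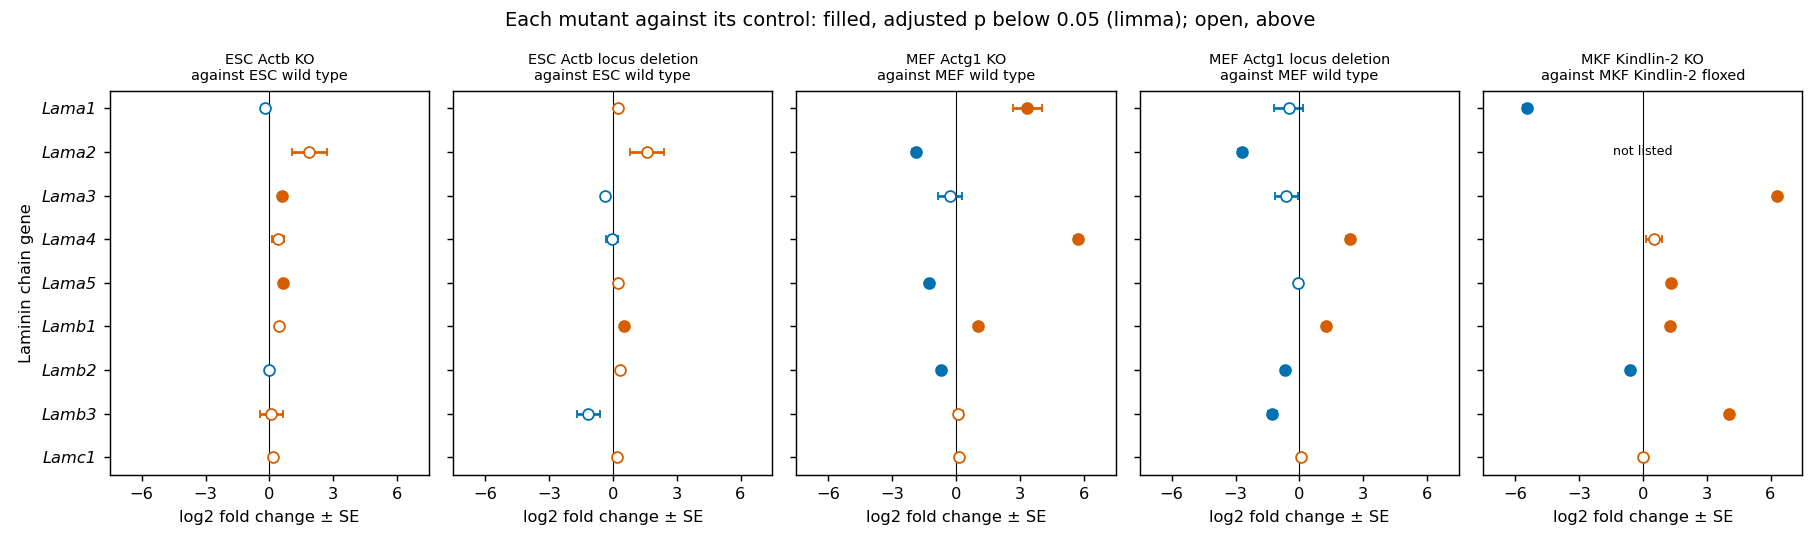
Log2 fold change of each laminin chain gene, mutant against its control, in 5 comparisons, with bars of 1 SE from limma. Filled points have an adjusted p below 0.05; the ESC differences of the 9 chain genes that passed lie between 0.53 and 0.62, while in MEFs and MKFs they reach 5.71 for Lama4 and 6.29 for Lama3.

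In wild-type MEFs Lama5 supplied nearly all alpha chain RNA, at 94.8% and 94.2% of the per-kilobase sum, with Lama2 next at a per-kilobase level of 20.5 and 20.0. Lamb2 was the leading beta chain, and the ratio of Lamb1 to Lamb2 was 0.213 and 0.199. The summed alpha chains were below both the summed beta chains and Lamc1 in all 6 MEF libraries. The wild-type levels allowed 6 of the 13 trimers, laminin-521, 511, 221, 211, 421 and 411.

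In Actg1 KO MEFs the set of alpha chains changed: Lama4 and Lama1 rose, Lama5 and Lama2 fell, and Lama3 stayed under 10 normalised counts in all 6 MEF libraries. With Lamb1 higher and Lamb2 lower, 6 of 9 chain genes were called, 3 in each direction, against 39.7% of all genes, 20.6% higher and 19.1% lower. Lama4, the alpha chain of vascular and fat laminins, read 18 and 17 in wild type and 971 and 967 in the KO. This is a ratio of means of 55.4 (5.71 ± 0.159 on the log2 scale, limma, adjusted p = 8.46e-07), and no library of one group came near the other. Lama1 read 7 and 3 in wild type and 51 and 62 in the KO (3.34 ± 0.682, adjusted p = 0.00605), but missed the threshold without wild-type library 2 (adjusted p = 0.0920), KO library 1 (0.127) or KO library 2 (0.143). Lama5 fell from 4822 and 4143 to 1751 and 1914 (−1.29 ± 0.0835, adjusted p = 2.29e-05). Lama2, the alpha chain of muscle laminin, fell from 335 and 327 to 97 and 80 (−1.90 ± 0.168, adjusted p = 9.5e-05). The 2 KO libraries lay apart from both wild-type libraries for each of these 4 genes. Groups of 2 often lie apart, and the share over all genes was not counted, so this sets no gene apart.

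Among the beta chains of the Actg1 KO, Lamb1 rose from 1562 and 1421 to 2963 and 3122 (1.03 ± 0.0865, limma, adjusted p = 7.59e-05). Lamb2 fell from 4491 and 4387 to 2697 and 2757 (−0.70 ± 0.0629, adjusted p = 0.000101). Lamb3, a beta chain of epithelial laminin, read 113 and 79 against 95 and 107, and its groups overlapped (0.09, adjusted p = 0.765). Beta chain RNA thus moved in opposite directions for Lamb1 and Lamb2, and the per-kilobase ratio of Lamb1 to Lamb2 was 0.674 and 0.694 in the KO. With coding lengths the ratio was 0.338 and 0.315 in wild type and 1.07 and 1.10 in the KO, so which of the 2 leads in the KO depends on the length used.

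Deletion of the Actg1 locus left Lama5 near wild type and moved Lama4, Lama2 and both common beta chains. Here 5 of 9 chain genes were called, 2 higher and 3 lower, against 22.0% of all genes, 9.46% higher and 12.6% lower. Lama4 read 83 and 107, above the 18 and 17 of wild type (2.36 ± 0.159, limma, adjusted p = 8.92e-05). Lamb1 read 3316 and 3860 (1.26 ± 0.0865, adjusted p = 9.36e-05) and Lamb2 2613 and 2872 (−0.70 ± 0.0629, adjusted p = 0.000318). Lama2 fell to 56 and 45 (−2.70 ± 0.168, adjusted p = 6.04e-05). Lamb3 fell to 39 and 38 (−1.27 ± 0.212, adjusted p = 0.00469), a call that was lost without wild-type library 1 or either locus-deletion library (adjusted p = 0.0510 to 0.0532). Lama5 read 4351 and 4216, within the range of wild type (−0.06, adjusted p = 0.668), and Lama1 read 7 and 1.

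Set against each other directly, with the same libraries as above, KO and locus-deletion MEFs differed in 5 of 9 chain genes, 4 higher and 1 lower in the KO, against 45.2% of all genes, 24.5% higher and 20.7% lower. Lama4 was 10.2 times as high in the KO (3.35 ± 0.159, limma, adjusted p = 3.92e-06), and Lama1 (51 and 62 against 7 and 1) was higher by 3.84 ± 0.682 (adjusted p = 0.0026), or by 4.84 without locus-deletion library 1 and 2.84 without library 2. Lama5 was lower by a log2 difference of −1.23 ± 0.0835 (adjusted p = 1.99e-05). Lama2 (0.80, adjusted p = 0.00584) and Lamb3 (1.37, adjusted p = 0.00132) were higher in the KO. Without KO library 1 the calls of Lama1 and Lama2 were lost (adjusted p = 0.0893 and 0.0849), and without KO library 2 those of Lama1 and Lamb3 (0.100 and 0.0576). Lamb2 read 2697 and 2757 against 2613 and 2872, and these ranges overlap (−0.01, adjusted p = 0.942). Lamb1 read 2963 and 3122 against 3316 and 3860 (−0.23, adjusted p = 0.0599, and 0.0298 among genes with a mean of at least 10). Lamc1 differed by 0.09 (adjusted p = 0.278), and by 0.19 (adjusted p = 0.0285) with libraries scaled to the same sum.

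Levels in the Actg1 KO allowed 8 of the 13 trimers, now with laminin-111 and laminin-121. Those after locus deletion allowed 9, among them laminin-213, 423 and 523 through Lamc3 at 10 and 15 normalised counts. Lamc3 read 8 and 6 in wild type, just under the threshold of 10, and its difference after locus deletion was not called (0.74, limma, adjusted p = 0.408). At a threshold of 50 the counts were 4 in wild type, 8 in the KO and 4 after locus deletion. The scarcest-chain level of laminin-411 and laminin-421, set by Lama4, was 1.49 and 1.41 per kilobase in wild type, 80.5 and 80.1 in the KO and 6.88 and 8.87 after locus deletion. That of laminin-521, set by Lama5, was 423 and 364 in wild type, 154 and 168 in the KO and 382 and 370 after locus deletion. Laminin-511 was bounded by Lamb1 in wild type, at 158 and 143, and by Lama5 in the KO, at 154 and 168. In the KO Lama5 held 62.6% and 64.6% of alpha chain RNA and Lama4 32.7% and 30.8%. With coding lengths Lama4 held 48.7% and 46.6%.

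**Figure D3:**
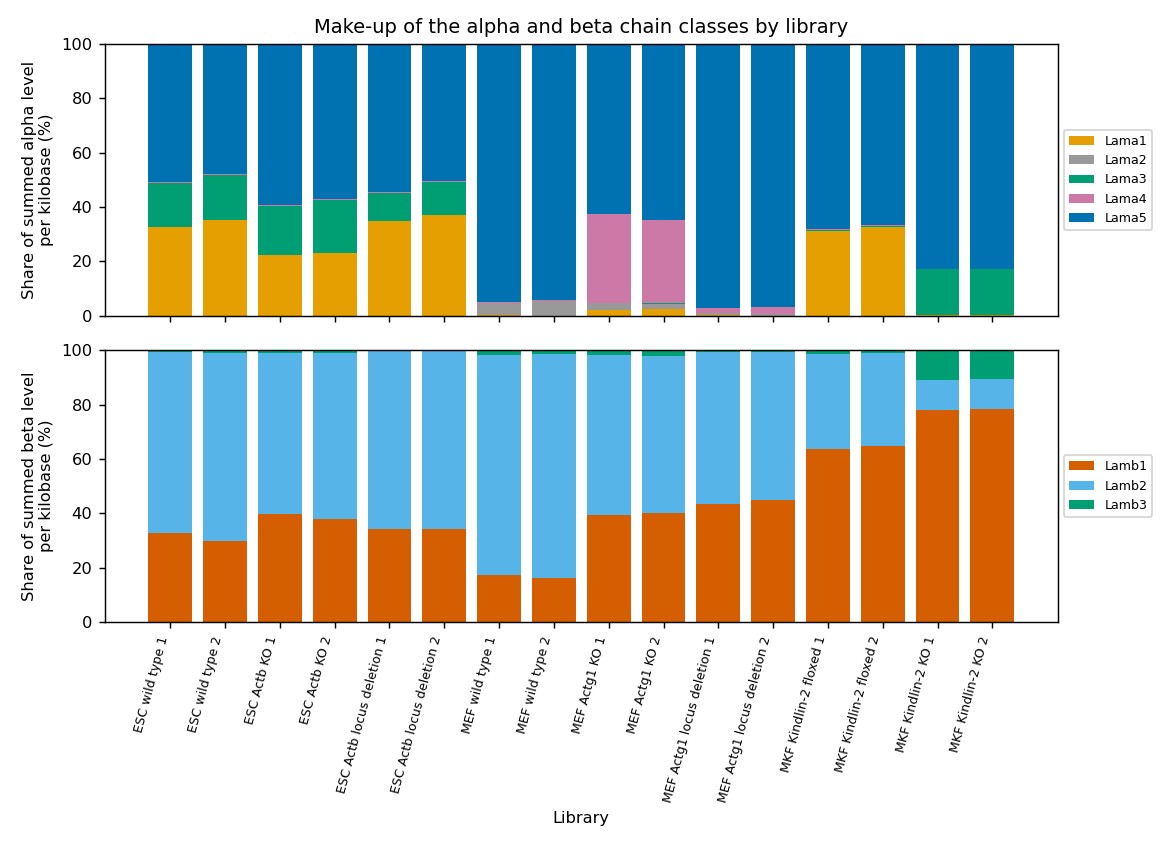
Stacked bars of the share (percent) of each chain in the summed per-kilobase level of its class, alpha or beta, with 1 bar per library. Lama5 fills most of the alpha bars of wild-type MEFs (94.8% and 94.2%) and 62.6% and 64.6% of those of the Actg1 KO, where Lama4 holds 32.7% and 30.8%; the alpha bars of Kindlin-2 KO MKFs hold Lama5 and Lama3.

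Of 21 tested partners of laminin 11 rose and 4 fell in Actg1 KO MEFs. These and the other list counts of the MEFs compare with 39.7% of all genes called in the KO and 22.0% after locus deletion. Col4a6, a collagen IV chain, went from 4 and 14 to 984 and 931 (6.79), and Col18a1, the source of endostatin, fell from 4351 and 3846 to 81 and 70 (−5.74). Nid2 rose by 1.74 and Hspg2, which encodes perlecan, by 0.81 (adjusted p = 0.000265). After locus deletion 6 of 21 rose and 8 fell, with Col4a1 higher by 1.19 (adjusted p = 4.17e-05) and Hspg2 lower (−0.87, adjusted p = 0.000492). Of 12 receptor genes 3 rose and 5 fell in the KO. Itga6 fell from 5253 and 4689 to 968 and 970 (−2.36), Itga3 by 1.18 and Itga7, the laminin receptor chain of muscle, by 1.99, while Itgb1 rose by 0.76. After locus deletion 5 of 12 rose and 1 fell, and Itga6 read 6575 and 7613 (0.51). Of 6 laminin-cutting proteases 5 rose in the KO and 1 fell: Mmp2 rose by 2.47 and Mmp3 fell from 27220 and 26992 to 4725 and 4519 (−2.55). After locus deletion 2 of these 6 rose and 2 fell. Dag1, which encodes dystroglycan, was not called in ESCs or MEFs. Of the genes of the dystroglycan complex and its sugar chain, 5 of 27 rose and 10 fell in the KO, and 5 rose and 5 fell after locus deletion. In ESCs 0 of 25 rose and 2 fell in the KO, and 2 rose and 2 fell after locus deletion.

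Some markers of fibroblasts and of other cell types also differed between the MEF groups. The 11 fibroblast markers summed to 62199 and 58043 in wild type, 174784 and 182347 in the Actg1 KO and 54020 and 56881 after locus deletion, and 6 of them rose and 3 fell in the KO. Dcn, a proteoglycan of fibroblasts, read 8037 and 7653 and Lum 4555 and 4508 in the KO, and at most 17 in the other 4 libraries. Col1a1 read 84930 and 91165 in the KO against 15137 and 13197 in wild type, a large part of each KO sum. These named fibroblast markers were all higher in the KO, and the 3 that fell are not named here. Sox2, a stem cell and neural factor, read 1326 and 1306 in the KO, 44 and 32 in wild type and 0 in both locus-deletion libraries. Endothelial markers, 6 of 9 listed, summed to 170 and 155 in wild type, 148 and 152 in the KO and 127 and 93 after locus deletion. In the KO 2 of these 6 rose, Tek and Vwf, and Kdr fell, with a median log2 difference of 0.93, and 6 were at 10 or more in both libraries against 3 in wild type. Epithelial markers, 6 of 12 listed, summed to 287 and 310 in wild type, 709 and 642 in the KO and 533 and 619 after locus deletion, and 2 of the 6 rose in the KO. Both listed skeletal muscle markers rose in the KO, from a sum of 8 and 12 to 39 and 43, beside 5 and 5 after locus deletion. Markers of Schwann cells and neural crest, 3 of 5 listed, summed to 40 to 58 per library. The part of any of these in the laminin results was not tested.

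In the floxed MKFs the alpha chain RNA was Lama5 (68.1% and 66.7% of the per-kilobase alpha sum) with Lama1 (31.3% and 32.8%), and Lamb1 led the beta chains, at 1.83 and 1.90 times Lamb2. On the per-kilobase scale Lamc1 (357 and 363) and Lamb1 (329 and 338) stood highest, followed by Lamb2 (180 and 178), Lama5 (172 and 157) and Lama1 (79.2 and 77.2). Lamb3, Lama3 and Lama4 lay at 46 and 41, 10 and 11 and 5 and 4 normalised counts.

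In Kindlin-2 KO MKFs the epithelial laminin chains Lama3 and Lamb3 rose from low levels, Lama5 and Lamb1 rose by about 2.5-fold, and Lama1 and Lamb2 fell, Lama1 to under 20 normalised counts. That is 6 of 8 tested chain genes, 4 higher and 2 lower, against 49.2% of all genes, 24.3% higher and 24.9% lower. Lama3 read 10 and 11 in floxed cells and 856 and 948 in the KO, a ratio of means of 85.9 (6.29 ± 0.118 on the log2 scale, limma, adjusted p = 3.88e-05). Lamb3 read 46 and 41 against 721 and 737 (4.04 ± 0.0936, adjusted p = 4.88e-05). Every KO library was more than 10-fold above every floxed library for both genes.

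Lama1 moved the other way, from 767 and 747 to 19 and 14 (−5.45 ± 0.164, limma, adjusted p = 6.8e-05). Lama5 read 1963 and 1788 in floxed cells and 4442 and 4940 in the KO (1.32 ± 0.0739, adjusted p = 0.000275), and Lamb1 read 3263 and 3353 against 7778 and 8287 (1.28 ± 0.045, adjusted p = 9.88e-05). Lamb2 fell from 1095 and 1084 to 688 and 732 (−0.62 ± 0.0522, adjusted p = 0.000838). None of these groups overlapped, but groups of 2 often lie apart and the share over all genes was not counted. Without floxed library 1 or 2, Lama5 (adjusted p = 0.0526 and 0.0546) and Lamb2 (0.0638 and 0.0625) missed the threshold, while their differences stayed at 1.39 and 1.25 and at −0.61 and −0.63. Lama4 read 5 and 4 against 6 and 8 (0.54, adjusted p = 0.278).

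The same 6 of 13 trimers passed the presence threshold of 10 in floxed and KO MKFs, laminin-111, 121, 311, 321, 511 and 521. At a threshold of 50 each group allowed 4, but not the same ones. Laminin-311 and 321 were then lost in floxed cells, where Lama3 read 10 and 11. In the KO laminin-111 and 121 were lost, where Lama1 read 19 and 14. Their scarcest-chain levels differed widely. That of laminin-311 and laminin-321 was 0.931 and 1.02 per kilobase in floxed cells and 79.7 and 88.2 in the KO, set by Lama3 in both. A shorter Lama3 coding transcript exists, and with its length, a choice made after seeing the data, the KO level was 154 and 171 for laminin-311, and 113 and 120 for laminin-321, then set by Lamb2. Laminin-111 and laminin-121 went from 79.2 and 77.2 to 1.96 and 1.45, set by Lama1. Laminin-511 went from 172 and 157, set by Lama5, to 346 and 378, set by Lamc1. Laminin-521 went from 172 and 157 to 113 and 120, set by Lamb2 in the KO. The ratio of Lamb1 to Lamb2 was 6.93 and 6.94 in the KO, and Lamb3 went from 1.35% and 1.19% to 10.8% and 10.4% of beta chain RNA.

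**Figure D4:**
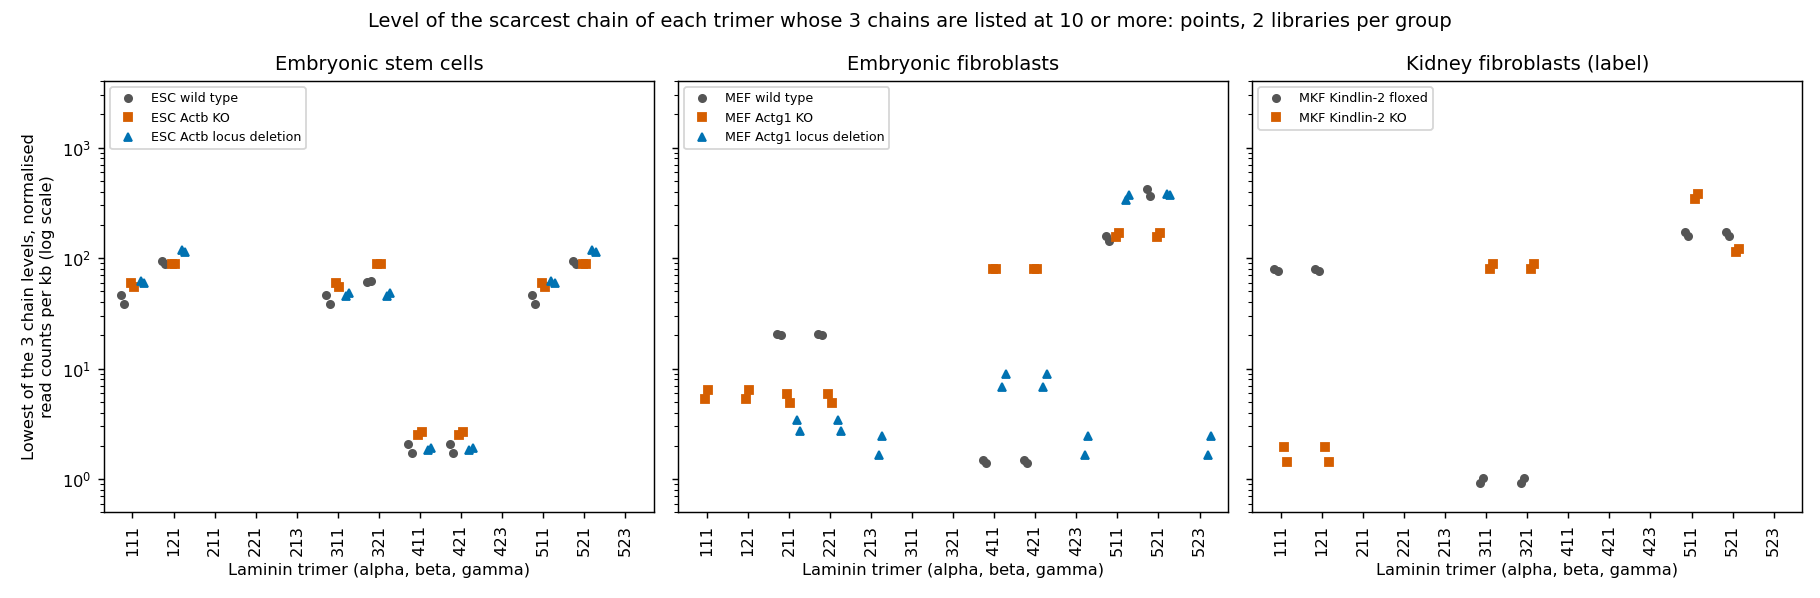
Per-kilobase level (log axis) of the scarcest of the 3 chains of each trimer whose chains were all at 10 or more normalised counts in both libraries, with 1 panel per cell type and 1 point per library. Laminin-311 and 321 are near 1 in floxed MKFs and at 79.7 and 88.2 in the KO, laminin-411 and 421 are highest in Actg1 KO MEFs, and the ESC groups lie close together.

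Of 13 laminin receptor genes 7 rose and 5 fell in Kindlin-2 KO MKFs, where 49.2% of all genes were called. Itgb4, the integrin chain of hemidesmosomes, went from 21 and 26 to 1961 and 2148 (6.40), its partner Itga6 from 778 and 781 to 3626 and 3774 (2.25), and Itga3 from 2448 and 2366 to 10390 and 11279 (2.17). Dag1 fell from 3288 and 3216 to 1458 and 1503 (−1.13, adjusted p = 9.65e-05), and the collagen-binding Itga1 and the syndecan Sdc2 fell by 1.73 and 2.84. Itgb1, the beta chain shared by most laminin integrins, fell by 0.25 (adjusted p = 0.00333). Of 25 genes of the dystroglycan complex and its sugar chain 6 rose and 9 fell, against the same 49.2% of all genes: Large2, an enzyme that extends the laminin-binding glycan, read 3 and 1 in floxed cells and 79 and 92 in the KO, while Sspn, which encodes sarcospan, fell from 130 and 132 to 5 and 4.

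Among 20 tested partners of laminin in MKFs 7 rose and 10 fell, against 24.3% of all genes higher and 24.9% lower. The main collagen IV genes fell, Col4a1 from 1267 and 1209 to 31 and 20 (−5.58) and Col4a2 from 933 and 808 to 5 and 7 (−6.97). Nid1 read 1 and 1 in floxed cells and 197 and 181 in the KO. Hspg2 was near its control (−0.02, adjusted p = 0.827), and Agrn, which encodes agrin, fell by 0.52. Mmp2, a protease that cuts laminin, read 823 and 817 in floxed cells and 1 and 0 in the KO. Of the 3 proteases tested there 1 rose and 2 fell.

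In the MKFs too, markers of several cell types differed between the groups. The 11 listed epithelial markers summed to 2058 and 2202 in floxed cells and 22139 and 22727 in the KO, and 10 of the 11 rose. Of these 11, 4 were at 10 or more in both floxed libraries and 9 in both KO libraries, so some may be listed through the KO alone. Cdh1, the epithelial cadherin, read 10 and 16 against 1399 and 1531, and Epcam 26 and 11 against 3430 and 3401, while Krt5 and Krt14 were listed at 0 in the floxed libraries. The 6 listed fibroblast markers summed to 506 and 567 in floxed cells and 19 and 14 in the KO, and all 6 fell. The 5 kidney tubule markers summed to 5281 and 5444 against 7329 and 7196, with the tubule factor Pax8 at 2044 and 2126 against 2238 and 2219. In the floxed libraries 5 of the 11 fibroblast markers were at 10 or more in both, and 0 were in the KO. Postn, named after its values were seen, read 311 and 366 in floxed cells and 1 and 0 in the KO. The collagen and proteoglycan genes Col3a1, Dcn and Lum were not listed in this table, and Col1a1 read 49 and 64 in floxed cells and 10 and 8 in the KO. The part of these markers in the laminin results was not tested.

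Netrins are secreted proteins with domains related to those of laminin chains. Ntn1, a guidance cue, was called higher in 4 of the 5 comparisons with a control: by 1.45 in the Actb KO (adjusted p = 0.000801), 0.64 after Actb locus deletion (0.0133), 2.28 in the Actg1 KO (3.7e-06) and 1.43 in the Kindlin-2 KO (0.000141). The 2 ESC comparisons share their wild-type libraries. Ntn4, which binds laminin gamma 1 and loosens laminin networks, fell in Kindlin-2 KO MKFs from 780 and 772 to 161 and 163 (−2.25). No other netrin tested was called except Ntng1, which fell by 2.20 after Actg1 locus deletion.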

How the data were processed

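RNA was isolated with an on-column DNase step and made into stranded total RNA libraries, per the labels' protocols. The submitters' processing notes name STAR 2.5.3a, featureCounts 1.6.0, DESeq2 1.14.1 and the mm10 (GRCm38) mouse build, with no roles, annotation or strand setting. The deposited tables, 1 per cell type, hold whole-number normalised counts, handled as a score because the raw counts they were made from are not used here. No column lacked a sample.

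Values were transformed to log2(value + 1), which understates the changes of low genes, and fitted with limma 3.58.1 (R 4.3.3) on all groups of a table together, with a trended prior, genes with a mean of at least 1, two-sided tests and Benjamini-Hochberg adjustment over all genes tested. Rose, fell and called mean an adjusted p below 0.05. The test was checked on simulated data. The 2 libraries of a group limit the precision. Groups of 2 often lie apart, and the share of all genes whose groups did so was not counted. Only low genes were left out, and all members listed in a table passed.

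Per-kilobase levels are values divided by merged exon length (GENCODE M21, GRCm38). Start-site windows came from RefSeq. In ESCs same-numbered libraries deviated together (correlations of 0.678, 0.349 and 0.492 across genes). This pairing comes from the values, not from the labels, so a fit with the replicate number as a block is given where it changes a call.

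Named genes were the 9 members, Lamc3, the targeted gene, the 5 genes nearest Lamc1, up to 5 called genes with the largest change per pathway list, and fixed receptors and partners. Some results are not reported here. The members and lists were chosen with earlier results of these data known. Alternatives were other pseudocounts, filters, scalings, library subsets, variance models, presence thresholds and lengths.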

Additional observations from a re-analysis of the deposited data

How the results depend on the processing

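The precision of all tests is limited by 2 libraries a group, and depth in reads is unknown. Chains at under 10 normalised counts cannot be told from near-absence, and their fold changes follow the pseudocount.

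In ESCs the calls were fragile. With only the compared libraries in the fit, 0 chain genes were called in the Actb KO, 0 after locus deletion and 1 between the 2; with no trend in the prior, 0, 0 and 0. Leaving out each library in turn gave 0 to 0 in each of the 3. At an unadjusted p below 0.05 there were 4, 5 and 5 genes in these comparisons, 4, 4 and 5 with no trend, 3, 3 and 4 with only the compared libraries, and 3 to 4, 3 to 5 and 3 to 5 with a library left out. With the replicate block the Actb KO gave 3 calls, the locus deletion 3 and their comparison 3. The locus deletion gave 2 with a mean of at least 10 and 2 with libraries scaled without genes over 1%. In MEFs and MKFs, where the numbers did not pair the libraries (correlations of −0.302, −0.211 and 0.214, and −0.0952), the block changed no count of called chain genes by over 1.5 times. Leaving out each MEF library in turn gave 3 to 6 calls for KO against locus deletion.

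Over all genes, 1126 were called in the Actb KO: 563 higher and 563 lower, or 467 and 786 when scaled without genes over 1%. There were 1850 with the block, 272 with only the compared libraries, 152 with no trend and 0 to 18 with a library left out. For Actb locus deletion the counts were 2580, 876 with only the compared libraries, 567 with no trend and 58 to 370, and for KO against locus deletion 1125, 1735 with the block, 214, 58 and 1 to 30. For the Actg1 KO they were 8581 and 4384 to 5879 with a library left out, for Actg1 locus deletion 4755, 2986, 2082 and 1803 to 3321, for KO against locus deletion 9754 and 5759 to 8205 with a library left out, and for the Kindlin-2 KO 8998 and 2112 to 3834.

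Differences near 0 changed sign in genes not called. Under both scalings Lamc1 between the ESC mutants (−0.0237 and −0.0230) and Lamb2 between the MEF mutants (0.0914 and 0.0874) did so. With a library left out, ranges crossed 0 for Lamb3 in the Actb KO (−0.14 to 0.32), Lama4 after Actb locus deletion (−0.15 to 0.0948), and Lama2 (−0.40 to 0.92) and Lamc1 (−0.10 to 0.11) between the ESC mutants. They did so for Lama3 (−0.70 to 0.11) and Lamb3 (−0.16 to 0.35) in the Actg1 KO, Lama1 (−1.50 to 0.50) and Lama5 (−0.17 to 0.0479) after Actg1 locus deletion, Lama3 (−0.18 to 0.82) and Lamb2 (−0.0748 to 0.0615) between the MEF mutants, and Lamc1 in the Kindlin-2 KO (−0.0585 to 0.0721). The cause was not tested. At a presence threshold of 50 the allowed trimers numbered 4 after Actg1 locus deletion, where they were 9 at a threshold of 10. The other lengths moved 44 scarcest-chain levels by more than the spread between libraries and 74 by less.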
